A study of Mus spretus with 19 samples.

Results

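Livers of male Algerian mice (Mus spretus) from the middle course of a polluted stream, site DR4, were compared with livers from its upper course, site DR6. The members were the 4 arrays labelled DR4 and the 3 labelled DR6, 7 of the 19 arrays of the series, chosen by their titles alone. The mice were captured at the sites. Each array measured the abundance of transcripts in pooled liver RNA of 9 mice with 1 colour (Cy3).

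The DR4 pool came from the medium course and the DR6 pool from the upper course of the Domingo Rubio stream, and the labels call both sites polluted. Values of the other 3 pools are given where they place a difference. They are DR1, the polluted lower course of the same stream, PS, the polluted phosphogypsum stacks, and SOL, the unpolluted Santa Olalla lagoon. No age, season or hour of capture was given in the sources used here. Each pool was labelled anew for every array, as technical repeats, so every p-value measures only the spread of labelling and hybridization, and no spread between mice. The arrays of a site also shared 1 slide and 1 scan, so site and slide cannot be told apart.

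The liver makes bile acids, plasma proteins and lipoproteins, burns or stores fatty acids with feeding, and clears foreign compounds. A circadian clock times much of this work: the factors CLOCK and BMAL1 switch on their own repressors, the PER and CRY proteins, together with output factors that carry the rhythm to metabolic genes. PPARα, a nuclear receptor for fatty acids, drives the genes of fatty acid oxidation, and the receptors CAR, PXR and AHR drive the enzymes that clear drugs and pollutants. Metallothioneins and metal transporters respond to zinc, copper and related metals.

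Levels are log2 signals relative to the 75th percentile of the gene spots of the array, so that 0 equals that percentile. Differences are DR4 minus DR6 on the log2 scale with their standard error (SE) from limma. A gene was called when its Benjamini-Hochberg adjusted p from limma was under 0.05 and the difference reached 1, which is 2-fold. Where several probes measured 1 gene, the brightest stands for it. Where all arrays of the lower site failed to rise well above background, the gene has only a bound, written "at least". Below, "rose" and "fell" are used of called genes and mean higher or lower in the DR4 pool than in the DR6 pool.

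The probes were designed on Mus musculus, and a base difference in Mus spretus can lower a probe's signal, which was not tested. The first 30 of the 60 bases of 5 probes are shown because these probes carry the leading differences of the clock, fat synthesis, drug metabolism and pancreas genes. The series holds 2 versions of the array design, an older one (mm7 build, 4 arrays) and a newer one (mm8 build, 15 arrays). The sequences come from the older version and the mm8 positions from the newer one, matched by probe name. They are given 5′ to 3′ in lower case with no part marked.
Arntl, chr7:113104645-113104704, plus strand: aacccccacataggcatcgatatgatagat
Dbp, chr7:45577937-45577996, plus strand: tgccagggcagagtcctgttccttgctcag
Scd1, chr19:44448208-44448267, minus strand: actcctgggctaagtatctgacagtctcac
Cyp2b10, chr7:25625797-25625856, plus strand: tcagagattttcagatcttatacctattgg
Ela1, chr15:100512617-100512676, minus strand: gtatgtgaacgtgcagaagattgtgtcaca

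Arrays of one pool were close to each other. Across genes, which are not independent replicates, the DR4 arrays correlated at r = 0.993 to 0.995, the DR6 arrays at 0.994 to 0.995, and a DR4 with a DR6 array at 0.973 to 0.976. The 75th percentile of the signal was 187 ± 17.1 on the DR4 arrays (SD, n = 4) and 137 ± 7.07 on the DR6 arrays (SD, n = 3). Of the gene spots, 57.6% ± 2.66 were well above background on the DR4 arrays and 54.1% ± 0.82 on the DR6 arrays. Hepatocyte markers bore out the labelled tissue: 27 of 29 were well above background on every DR4 array and 29 of 29 on every DR6 array, and Alb1, serum albumin, was saturated on all 7. The 27 markers with a value on all 7 arrays summed to 3.42% to 3.57% of the gene signal on the DR4 arrays and 3.91% to 3.98% on the DR6 arrays. These sums include saturated spots such as those of Alb1, whose full signal is not known.

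Transcripts of another organ differed between the pools. The 24 markers of exocrine pancreas with a value on all 7 arrays summed to 0.355% to 0.364% of the gene signal on the DR4 arrays and to 1.99% to 2.04% on the DR6 arrays. Their part in the differences of other genes was not tested. In a pool, fewer cells of a type and less RNA per cell cannot be told apart.

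Of 16344 genes and transcripts tested, 1007 (6.16%) were called between DR4 and DR6. Of all tested genes, 390 (2.39%) were higher in DR4 and 617 (3.78%) lower, which makes 38.7% of the calls higher. With median scaling 49.2% of the calls were higher, with quantile scaling 46.1%, and with normexp background correction and the 75th percentile 17.6%. A call described below as lost or kept with normexp refers to this last setting. A call lost only in the other normexp setting, which scales by quantiles, is named as such. The median difference over all genes was −0.049. The adjusted p alone was passed by 7259 genes (44.4%), and 8944 (54.7%) had DR4 and DR6 arrays that did not overlap. Among the 1007 called genes 989 did not overlap, so this trait adds little to a call. Of the called genes, 213 differed at least 4-fold, 70 of them higher and 143 lower. A bound was all that could be given for 214, and 20 were not above background at either site.

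**Figure D1:**
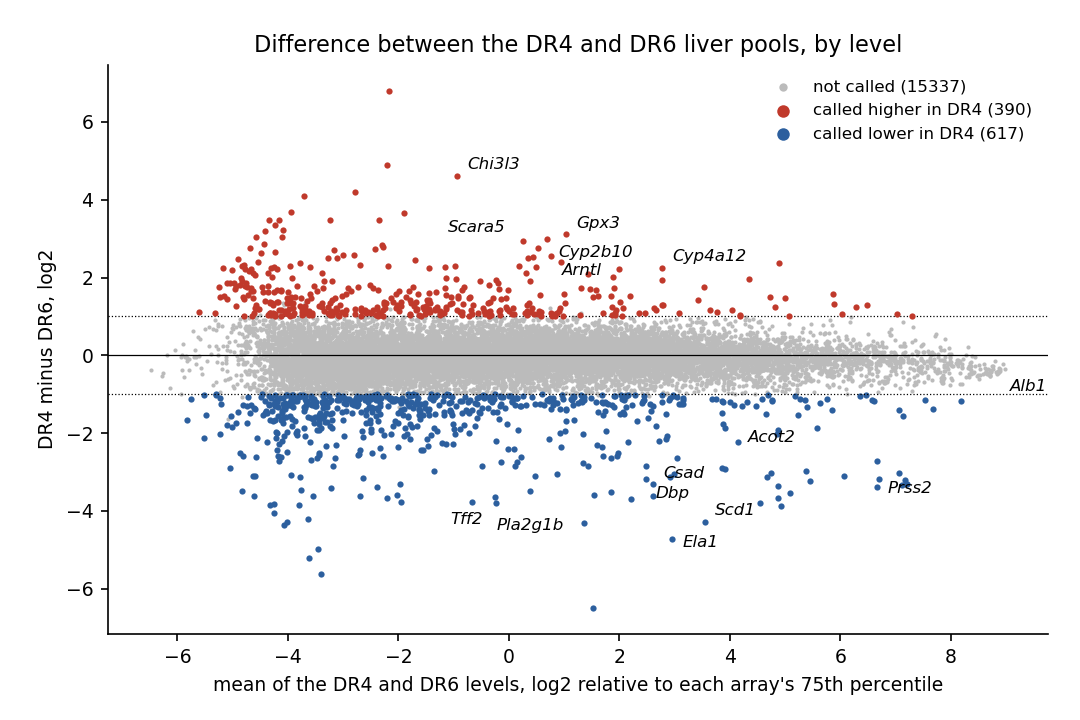
Each point is 1 gene, with the mean of its DR4 and DR6 levels (log2 relative to the 75th percentile) on the x axis and DR4 minus DR6 (log2) on the y axis; red and blue mark the 390 called higher and the 617 called lower in DR4, grey the rest, and dotted lines the 2-fold limit. Chi3l3 stands out among the rises, Ela1, Scd1 and Prss2 among the falls, and bright genes such as Alb1 lie mostly between the dotted lines.

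Among the lists of liver pathways, the circadian clock had the largest share of called members. Of 19 measured clock genes, 1 rose and 10 fell, against 6.16% called among all genes, and their median difference was −1.11. Arntl, which encodes BMAL1, the positive factor of the clock, was the member that rose. Its level was 1.95, 2.04, 2.07 and 2.13 on the DR4 arrays, against −0.70, −0.43 and −0.39 on the DR6 arrays, a difference of 2.56 ± 0.42 (adjusted p = 1.13e-04). All 4 DR4 arrays lay above all 3 DR6 arrays, where 54.7% of all genes had no overlap in either direction. The SE comes from a fit to all 5 sites, and the SD of Arntl over the SOL arrays, 1.24, was the largest of the 5.

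Dbp, an output factor that BMAL1 and CLOCK drive directly, was the mirror image of Arntl. It stood at 0.95, 0.88, 0.81 and 0.89 on the DR4 arrays, against 3.91, 4.16 and 4.13 on the DR6 arrays, and fell by 3.19 ± 0.29 (adjusted p = 1.88e-07). Its relatives Tef and Hlf, of the same PAR bZIP family, fell by 1.29 ± 0.082 and 1.11 ± 0.098, the call of Hlf being lost with normexp and quantile scaling. None of these 3 genes had overlapping arrays, as was so for 54.7% of all genes.

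Of the repressors of the clock, 5 fell. Per2 stood at −2.34, −2.50, −2.68 and −1.83 on the DR4 arrays, against 0.11, −0.13 and −0.23 on the DR6 arrays, and fell by 2.25 ± 0.16 on its brighter probe, while a second, dimmer probe differed by −0.56. Bhlhb2 (DEC1), another repressor of CLOCK and BMAL1, fell by 2.20 ± 0.10, and Gm129, known as Chrono, by 2.40 ± 0.091. Per3 was not well above background on any DR4 array and was at least 5.02-fold lower. Per1 did not pass the limit, at −0.58 ± 0.13. Nr1d1, the nuclear receptor REV-ERBα that represses Arntl, fell by 1.62 ± 0.071, with −1.42, −1.27, −1.41 and −1.43 on the DR4 arrays and 0.29, 0.21 and 0.20 on the DR6 arrays. Other repressors stayed under the limit on their brightest probes, with either sign, Cry1 at 0.78 ± 0.097, with 1.25 on its second, dimmer probe, Cry2 at −0.57 ± 0.075 and Nr1d2, a relative of Nr1d1, at −0.38 ± 0.12.

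Further rhythmic genes went the same way. Usp2, a deubiquitinase with a strong daily rhythm, fell by 2.21 ± 0.067, and Ccrn4l, the deadenylase nocturnin, by 1.51 ± 0.12. The partner of BMAL1, Clock, was at 0.64 ± 0.069 on the brightest of 4 probes, which ran from −0.052 to 1.00, Rora, an activator of Arntl, at 0.33 ± 0.056, and Nfil3, a repressor that competes with DBP, at 0.21 ± 0.50. These 3 stayed under the limit. With normexp and the 75th percentile the calls of Per2, Per3 and Nr1d1 were lost, and the list kept 8 called members.

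**Figure D2:**
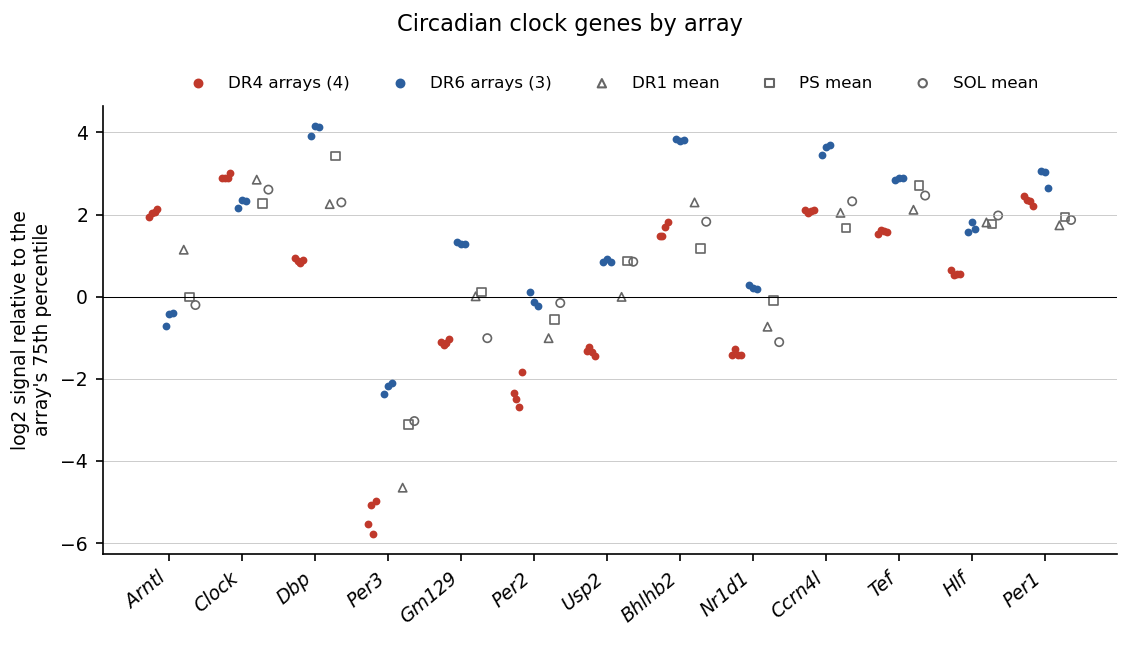
Level of 13 clock genes (y axis, log2 relative to the 75th percentile of the array) on each DR4 array (red) and each DR6 array (blue), with the means of DR1, PS and SOL as open grey symbols. Arntl is high on the DR4 arrays and low on the DR6 arrays, while Dbp, Per2, Per3, Nr1d1 and the other repressors and output genes are the other way round.

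Several genes of fat synthesis were lower in the DR4 pool, most of all Scd1, the stearoyl-CoA desaturase that makes monounsaturated fatty acids. Scd1 stood at 1.49, 1.36, 1.47 and 1.32 on the DR4 arrays, against 5.83, 5.64 and 5.58 on the DR6 arrays, and fell by 4.27 ± 0.070 (adjusted p = 4.52e-17). All DR4 arrays lay far below all DR6 arrays, and arrays of 1 pool lay close together. Of 26 genes of fatty acid and triglyceride synthesis 1 rose and 4 fell, with a median of −0.41. The others that fell were Elovl6, an elongase of long fatty acids, by 1.15 ± 0.064, Dgat1, which makes triglyceride, by 1.37 ± 0.17, and Slc25a1, the mitochondrial citrate carrier, by 1.19 ± 0.18. Fasn, fatty acid synthase, was at −0.53 ± 0.087 and Dgat2 at −0.090 ± 0.096, both under the limit.

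Mogat1, a monoacylglycerol acyltransferase, was the member that rose. Its level was 1.34, 1.39, 1.29 and 1.29 on the DR4 arrays, against −0.45, −0.63 and −0.65 on the DR6 arrays, a difference of 1.90 ± 0.086. In glycolysis, which feeds fat synthesis, Pklr, liver pyruvate kinase, fell by 2.39 ± 0.17. It lost the call with normexp, as did Slc25a1. Ppp1r3c, a glycogen-targeting subunit of protein phosphatase 1, rose by 2.31 ± 0.24, a call lost with normexp and quantile scaling. In the glycolysis and gluconeogenesis list, 1 of 28 members rose, 2 fell and the median was −0.27.

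Targets of PPARα and genes of fatty acid oxidation lay lower in DR4 almost throughout: 16 of 43 fell, none rose, 42 of 43 had a negative difference and the median was −0.77. Over all genes 6.16% were called. A negative sign was not particular to this list, since 28 of 29 hepatocyte markers had it, with 1 called and a median of −0.35. Some of those markers, among them Alb1 and Apoa2, were saturated at both sites. Over the other settings Alb1 ran from −0.81 to −0.00063 and Apoa2 from −0.82 to 0.096. The part of saturation and scaling in the hepatocyte signs was not tested. The acyl-CoA thioesterases, which free fatty acids from coenzyme A, led the PPARα list. Acot3 stood at −1.38, −1.49, −1.33 and −1.07 on the DR4 arrays, against 1.49, 1.55 and 1.55 on the DR6 arrays, and fell by 2.85 ± 0.079 (adjusted p = 4.65e-14). Acot2 stood at 3.11, 2.92, 3.05 and 3.02 on the DR4 arrays, against 5.16, 5.31 and 5.30 on the DR6 arrays, and fell by 2.23 ± 0.067, and Acot4 fell by 1.82 ± 0.063. All 3 had DR4 arrays wholly below the DR6 arrays, where 54.7% of all genes had no overlap in either direction.

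Pdk4, the kinase that turns off pyruvate dehydrogenase in fasting, stood at 4.01, 3.79, 3.79 and 3.74 on the DR4 arrays, against 5.82, 5.93 and 5.83 on the DR6 arrays, and fell by 2.03 ± 0.11. Fgf21, the fasting hormone of the liver, fell by 1.92 ± 0.44, with −0.63, −0.88, −0.88 and −0.81 on the DR4 arrays and 1.05, 1.09 and 1.22 on the DR6 arrays. Cidec, a lipid droplet protein, fell by 1.86 ± 0.098, the peroxisomal thiolase Acaa1b by 1.57 ± 0.099 and the peroxisome proliferation factor Pex11a by 1.51 ± 0.071. Of the brightest members Acaa1a, another peroxisomal thiolase, was at −0.71 ± 0.068 on its brightest probe but at −1.37 and −1.13 on the others, while Peci was saturated at both sites. The fatty acid ω-hydroxylase Cyp4a14 fell by 1.39 ± 0.11, but 2 of the 3 DR6 values were outlier spots and left out, and 1 of 3 was for Vnn1, a pantetheinase, which fell by 1.53 ± 0.097. With normexp and the 75th percentile Fgf21 and Cyp4a14 lost their calls, although 20 members were then called.

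Adipose markers were looked at beside these genes, since Scd1, Cidec and Pparg are also abundant in fat. Of 12 measured, only Cidec was called. The 11 with a value on all 7 arrays summed to 0.0328% to 0.0398% of the gene signal on the DR4 arrays and 0.0789% to 0.0928% on the DR6 arrays. That sum leaves out Fabp4 and includes Cidec, which averaged 4.65 in DR4 and 6.50 in DR6. Fabp4, the fatty acid binding protein of adipocytes, was at −0.42 ± 0.16, with 1 of 3 DR6 arrays measured, Pparg at −0.84 ± 0.089 and Cebpa at −0.68 ± 0.064. All of the markers were measured in both pools, and their part in the lipid differences was not tested.

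**Figure D3:**
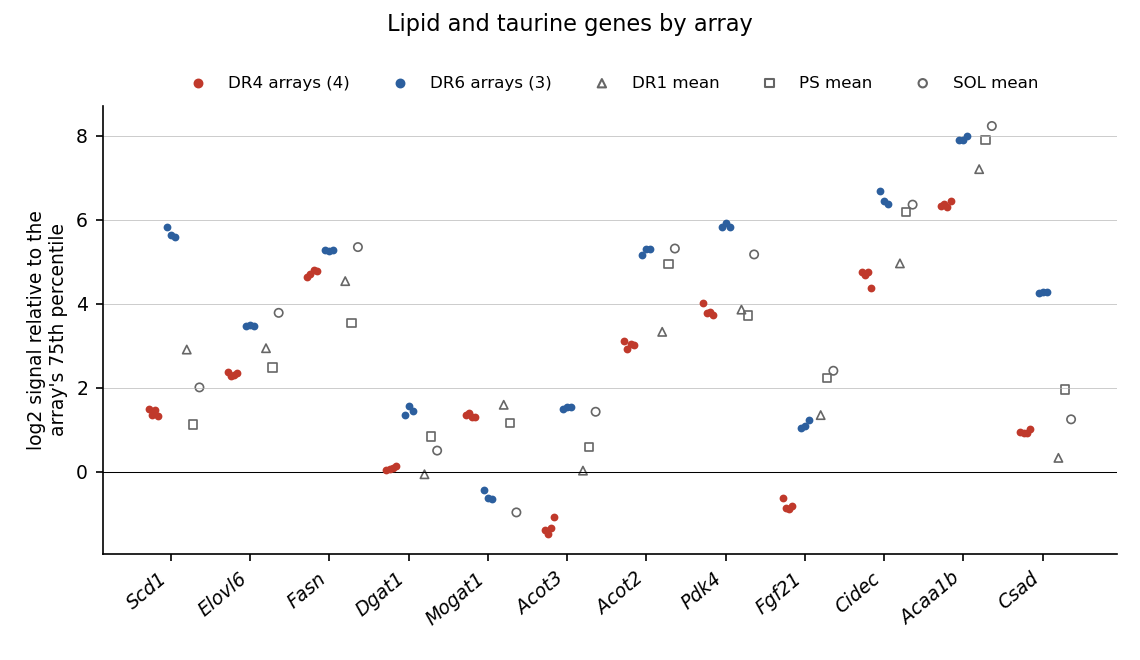
Level of 11 genes of fat metabolism and of Csad (y axis, log2 relative to the 75th percentile of the array) on each DR4 array (red) and each DR6 array (blue), with the means of DR1, PS and SOL as open grey symbols. Scd1, Csad, Acot3 and Acot2 are low on the DR4 arrays and high on the DR6 arrays, Mogat1 is the other way round, and Fasn differs by less than 2-fold.

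Few cholesterol and bile acid genes passed the limit. Of 29 cholesterol genes 2 fell, none rose and the median was −0.084, but 0.0046 under median scaling. Soat2, which esterifies cholesterol, fell by 2.02 ± 0.098, a dim gene that lost the call with normexp. Stard4, a cholesterol carrier, fell by 1.32 ± 0.069 on its brightest probe, but its other probes were at −0.18 and 0.020. Cyp7a1, the rate-limiting enzyme of bile acid synthesis, was at −0.42 ± 0.087 and Cyp8b1, the sterol 12α-hydroxylase, at −0.70 ± 0.12.

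Of 25 bile acid genes 1 rose and 2 fell, all 3 of them transporters. Slc10a1, which takes bile acids up from the blood, fell by 1.86 ± 0.11. Its level was 3.05, 3.00, 3.06 and 2.86 on the DR4 arrays, against 4.85 on the 1 DR6 array whose spot was not an outlier. Abcc4, an export pump of the blood side, fell by 1.77 ± 0.17 and Ostb, a subunit of another export carrier, rose by 1.58 ± 0.13. Both lost the call with normexp. Among apolipoprotein genes 3 of 24 fell, Apoa4 by 1.14 ± 0.081, Pltp by 1.28 ± 0.11 and Lipg by 1.51 ± 0.31, of which Pltp and Lipg lost the call with normexp and Apoa4 with normexp and quantile scaling, while Apoe, Apoa2 and Apoc1 were saturated at both sites.

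Csad, the decarboxylase that makes hypotaurine for taurine and its bile acid conjugates, fell by 3.31 ± 0.085 (adjusted p = 2.13e-14). It stood at 0.95, 0.93, 0.92 and 1.02 on the DR4 arrays, against 4.24, 4.27 and 4.27 on the DR6 arrays, and the pools were far apart with arrays of 1 pool close together. Cdo1, the enzyme before it, was at −0.44 ± 0.077, and Cth, which makes cysteine, at 0.72 ± 0.062. Mpst, a sulfurtransferase, rose by 1.46 ± 0.13 and lost the call with normexp. Of 38 genes of the urea cycle and amino acid breakdown only Aass, which breaks down lysine, was called, falling by 1.41 ± 0.063. Of 69 genes of oxidative phosphorylation none was called by limma, and the median was −0.088. The unadjusted p was under 0.05 for 25 of them and the adjusted p for 17, against 44.4% of all genes for the adjusted p.

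Cytochrome P450 genes of the Cyp2 and Cyp3 families went both ways, with 5 of 38 higher, 2 lower and a median of 0.0055, which was −0.23 with normexp. Cyp2b10, the classic target of the receptor CAR, led them. It stood at 2.16, 2.21, 2.24 and 2.20 on the DR4 arrays, against −0.65, −0.90 and −0.86 on the DR6 arrays, and rose by 3.00 ± 0.087 (adjusted p = 7.87e-14). A second Cyp2b10 probe gave 1.83, so both probes placed DR4 well above DR6. Cyp3a25 rose by 1.50 ± 0.087, over 3 DR4 arrays, Cyp2c44 by 1.11 ± 0.059 and Cyp2c70 by 1.06 ± 0.086, and these 3 lost the call with normexp. Cyp2c54 rose by 1.04 ± 0.37, a call lost when any 1 of the 7 arrays was left out. The members that fell were Cyp2c65, by 1.32 ± 0.17, and Nr1i2, the receptor PXR itself, by 1.05 ± 0.11, and with normexp Cyp2b10 alone of the 7 called members kept its call. Cyp3a11, a main target of the receptor PXR, was at −0.16 ± 0.12.

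None of the 6 genes of the AHR list was called by limma. At differences below 2-fold, 5 had an unadjusted and an adjusted p under 0.05, the adjusted one being passed by 44.4% of all genes. Cyp1a1, its most inducible target, was at −0.92 ± 0.19 with −1.35, −0.99, −0.95 and −1.23 on the DR4 arrays and −0.12, −0.39 and −0.12 on the DR6 arrays. Cyp1a2 was at 0.35 ± 0.071, Nqo1 at 0.58 ± 0.10 and the receptor itself, Ahr, at 0.74 ± 0.13. The members thus did not share a direction, and the list median of 0.15 was −0.12 with normexp. All 6 had DR4 and DR6 arrays that did not overlap, as did 54.7% of all genes.

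Of the conjugating enzymes 2 of 46 rose and 5 fell. The sulfotransferase Sult1d1 rose by 1.71 ± 0.072, with 2.36, 2.27, 2.36 and 2.33 on the DR4 arrays and 0.61, 0.63 and 0.60 on the DR6 arrays. Sult1e1, which sulfates estrogen, was at least 4.79-fold higher, since it was not well above background on any DR6 array. The glucuronosyltransferase Ugt1a9 fell by 1.53 ± 0.071, the sulfotransferase Sult1c2 by 2.04 ± 0.10 and the glutathione transferase Gstt1 by 1.36 ± 0.10. Sult1e1, Sult1c2 and Gstt1 lost the call with normexp.

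Of 20 targets of NRF2, the sensor of electrophiles, none rose and 2 fell: Abcc4, given above, and the aldo-keto reductase Akr1b7, by 1.17 ± 0.069. Hmox1, heme oxygenase, was at 0.015 ± 0.096 with overlapping arrays. Gpx3, the secreted glutathione peroxidase, was the member called among 27 antioxidant enzymes. It stood at 2.63, 2.50, 2.57 and 2.64 on the DR4 arrays, against −0.66, −0.41 and −0.51 on the DR6 arrays, and rose by 3.11 ± 0.14 (adjusted p = 3.83e-11). The cellular enzyme Gpx1 was at 0.013 ± 0.16.

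Metal genes did not move as a group: 2 of 24 rose and 3 fell, with a median of 0.021, which was −0.15 with normexp. Mt1 was at 0.67 ± 0.12, with 7.10, 7.33, 7.30 and 7.27 on the DR4 arrays and 6.42, 6.52 and 6.79 on the DR6 arrays, a difference under the limit, and a second, dimmer probe gave 0.0019. Mt2 was saturated on all 4 DR4 arrays and on no DR6 array, so no fold is given for it. Slc30a10, which exports manganese, stood at 0.30, 0.12, 0.29 and −0.021 on the DR4 arrays, against −2.12, −2.11 and −2.14 on the DR6 arrays, and rose by 2.30 ± 0.090.

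Slc11a2, the importer of iron and other divalent metals, rose by 1.55 ± 0.076 on its brightest probe, but its other probes gave 0.20 and −0.42. Slc39a5, a zinc importer that is also abundant in pancreas, fell by 2.85 ± 0.29. It stood at −4.69, −3.54, −5.22 and −4.95 on the DR4 arrays, against −1.77, −1.77 and −1.73 on the DR6 arrays, with 1 of the 4 DR4 arrays well above background, and the pancreas markers fell beside it. The zinc importer Slc39a4 fell by 1.23 ± 0.055 and the copper pump Atp7b by 1.18 ± 0.15. With normexp the calls of Slc11a2, Slc39a5 and Atp7b were lost, and that of Slc39a4 with normexp and quantile scaling. None of 25 iron genes was called by limma. The unadjusted p was under 0.05 for 12 and the adjusted p for 11, against 44.4% of all genes for the adjusted p. Hamp1, hepcidin, was at 0.52 ± 0.15 and Tfrc, the transferrin receptor, at 0.59 ± 0.051. Scara5, a receptor that can take up ferritin and was not on the iron list, rose by 2.95 ± 0.072, with 1.75, 1.82, 1.77 and 1.61 on the DR4 arrays and −1.09, −1.28 and −1.26 on the DR6 arrays.

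Immediate early genes, which respond within minutes to stimuli, fell or stayed under the limit: 6 of 30 fell, none rose and the median was −0.13. Atf3, a stress-induced repressor, stood at 0.76, 0.67, 0.73 and 0.74 on the DR4 arrays, against 3.26, 3.24 and 3.18 on the DR6 arrays, and fell by 2.50 ± 0.087 (adjusted p = 7.40e-13). Btg2, an antiproliferative gene, fell by 1.76 ± 0.073 on its brightest probe, with its other probes at −0.49 and −0.91. Jun fell by 1.23 ± 0.070 and Klf10 by 1.19 ± 0.13. Fos was at −0.15 ± 0.13, Junb at −0.025 ± 0.20 and Nr4a1 at −0.60 ± 0.067, so the best known members did not pass. Zfp36, which destabilizes cytokine mRNA, fell by 1.05 ± 0.17, which was −0.87 without DR4 replicate 3 and −0.96 under median scaling. Jun lost the call with normexp, and Klf10 and Zfp36 with normexp and quantile scaling.

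Of 29 genes of growth arrest and damage response 1 rose and 2 fell, with Btg2, given above, among those that fell. Cdkn1a, the p21 cell cycle inhibitor, rose by 1.09 ± 0.064, with 2.28, 2.23, 2.25 and 2.22 on the DR4 arrays and 1.10, 1.15 and 1.22 on the DR6 arrays. Gadd45a, of the damage response, fell by 1.81 ± 0.29, with −1.48, −1.45, −1.62 and −1.49 on the DR4 arrays and 0.21, 0.39 and 0.30 on the DR6 arrays. Both calls were lost with normexp. Sesn1 was at 0.80 ± 0.082, Ddit4 at 0.21 ± 0.094 and Myc at 0.17 ± 0.059.

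The ER stress and amino acid list had 2 higher and 4 lower of 35. Phgdh, the first enzyme of serine synthesis, fell by 2.27 ± 0.084, with −2.15, −2.10, −2.28 and −2.04 on the DR4 arrays and 0.12, 0.16 and 0.096 on the DR6 arrays. Psat1, the next enzyme, fell by 1.15 ± 0.11. Nupr1, a stress-induced chromatin protein first described in pancreas, fell by 2.16 ± 0.11, and Gdf15, a stress cytokine, by 1.61 ± 0.086. The chaperone Hyou1 rose by 1.01 ± 0.088 and Derl3, of ER-associated degradation, by 1.04 ± 0.093, values close to the limit that were under it without DR6 replicate 3 for Hyou1 and without DR6 replicate 1 for Derl3. Phgdh, Psat1, Hyou1 and Derl3 lost the call with normexp. Of 36 heat shock genes 2 fell and 1 rose. The inducible Hspa1b and Hspa1a fell by 1.64 ± 0.098 and 1.20 ± 0.072, and Hspa2, a chaperone best known from testis, rose by 1.23 ± 0.16, all 3 lost with normexp. The constitutive Hspa8 was at −0.61 ± 0.10. Of 43 cell cycle genes 1 rose, Ccnf at 1.05 ± 0.19, and 2 fell, Ube2c at −1.14 ± 0.13 and Ccnb1 at −1.35 ± 0.52. Ccnf lost the call with normexp and without DR4 replicate 1, and Ube2c lost it with normexp. Ccnb1 lost it under median and quantile scaling and was at 0.089 with normexp.

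Inflammatory genes were higher in the DR4 pool in part of their lists. Of 50 interferon-response genes 6 rose and none fell, with a median of 0.21 and 37 of 50 differences above 0. Tgtp, an interferon-induced GTPase, averaged 3.75 ± 0.15 over the 4 DR4 arrays and 1.81 ± 0.19 over the 3 DR6 arrays (SD), and rose by 1.95 ± 0.091 on the brighter of its probes, while the other, not well above background in DR6, is given no fold. Rsad2 (viperin) stood at 0.65, 0.71, 0.72 and 0.81 on the DR4 arrays, against −1.35, −1.10 and −0.94 on the DR6 arrays, and rose by 1.85 ± 0.14. Neither had overlapping arrays, as was so for 54.7% of all genes. Ifit1 rose by 1.33 ± 0.21, Isg15, a ubiquitin-like modifier, by 1.25 ± 0.066, Usp18, which removes it, by 1.14 ± 0.089 and the GTPase Ifi47 by 1.10 ± 0.11. These 4 lost the call with normexp.

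Chemokines and NF-κB feedback genes had 6 of 42 higher and 2 lower. Ccl2, which attracts monocytes, stood at 0.078, −0.032, −0.084 and −0.063 on the DR4 arrays, against −2.13, −2.32 and −2.43 on the DR6 arrays, and rose by 2.27 ± 0.12 (adjusted p = 1.82e-10). Tnfaip6, a matrix protein induced by TNF, rose by 2.58 ± 0.24, and Relb, an NF-κB subunit, by 1.48 ± 0.10. Ccl4 was at least 2.76-fold, Ccl3 at least 1.48-fold and Cxcl2 at least 1.04-fold higher. Ccl2 kept its call with normexp, and the other 5 lost it. The lower members, the chemokine Ccl6 at −1.95 ± 0.26 and Il10, at least 1.82-fold lower, were near background in DR4 and lost theirs too.

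The chitinase-like lectins of macrophages and neutrophils gave the largest rises with a symbol. Chi3l3 (Ym1) stood at 1.43, 1.39, 1.36 and 1.32 on the DR4 arrays, against −3.04, −3.47 and −3.23 on the DR6 arrays, and rose by 4.62 ± 0.14 (adjusted p = 1.04e-13). Chi3l4 (Ym2), a close relative whose transcripts may cross-hybridize, was at least 20.6-fold higher. Retnla (FIZZ1), often expressed with Ym1 in macrophages, went the other way, at −2.30 ± 0.24, and lost the call with normexp. The members of this list thus did not share a direction.

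Few markers of immune cells were called beside these genes. Of 29 macrophage markers 1 fell, Cd163 at −1.01 ± 0.25, a call lost under median and quantile scaling and with normexp. The macrophage markers summed to 0.125% to 0.131% of the gene signal on the DR4 arrays and 0.101% to 0.105% on the DR6 arrays. Of their differences 14 were above 0 and 15 below, with a median of −0.0047. Lyzs, lysozyme, was at 0.87 ± 0.054 and Cd5l at −0.097 ± 0.080. The macrophage sum includes Lyzs, which averaged 4.52 in DR4 and 3.65 in DR6. Neutrophil markers summed to 0.0115% to 0.0129% of the signal on the DR4 arrays and 0.00624% to 0.00698% on the DR6 arrays, and 3 of 15 rose: Chi3l3, Cxcl2 and Stfa1, the last at least 2.37-fold. The sum includes Chi3l3, which averaged 1.38 in DR4 and −3.25 in DR6. Of the 15 differences 8 were above 0 and 7 below, with a median of 0.20 and Csf3r at −0.58. Cxcl2 and Stfa1 lost the call with normexp. S100a9, an abundant neutrophil protein and also part of the neutrophil sum, was at 0.76 ± 0.088. No B cell or MHC class II marker was called by limma, with an unadjusted p under 0.05 for 9 of 14 and 6 of 9. The adjusted p was under 0.05 for 7 and 3 of them, against 44.4% of all genes. Whether the number of these cells differed between the pools was not tested. Among T cell and NK cell markers Nkg7 was at −0.19 ± 0.099 and Ccl5 at −0.067 ± 0.059, with overlapping arrays.

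Acute phase genes had 3 higher and 1 lower of 36. Fga, the fibrinogen α chain, rose by 1.30 ± 0.10, Saa4, a serum amyloid, by 1.08 ± 0.059 and Saa3, its inducible relative, by 1.02 ± 0.090. Serpina3n, a protease inhibitor, fell by 1.05 ± 0.064, which was −0.95 under median scaling and also lost the call with quantile scaling. Fga, Saa3 and Saa4 lost the call with normexp, and the bright Saa1 was saturated at both sites. None of 42 complement and coagulation genes was called by limma. The unadjusted p was under 0.05 for 22 and the adjusted p for 20, against 44.4% of all genes for the adjusted p.

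Sex-biased liver genes follow the rhythm of growth hormone release, and both pools were male. Of 23 male-biased genes 3 rose and none fell. Cyp4a12, a male-specific fatty acid hydroxylase, stood at 4.01, 3.90, 3.86 and 3.84 on the DR4 arrays, against 1.61, 1.74 and 1.60 on the DR6 arrays, and rose by 2.26 ± 0.074 (adjusted p = 3.13e-13). Moxd1 stood at 1.63, 1.57, 1.63 and 1.72 on the DR4 arrays, against −0.70, −0.65 and −0.57 on the DR6 arrays, and rose by 2.28 ± 0.10. Mup5, a major urinary protein, rose by 1.25 ± 0.12 and lost the call with normexp. Of the bright members that were not called, Elovl3 was at −0.68 ± 0.058, Cyp2d9 at −0.21 ± 0.078, and the brightest Mup1 probe was saturated at both sites while its other probes gave 0.94 and 1.59.

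Of 28 female-biased genes 6 fell and 1 rose. The members that fell were Abcd2, a peroxisomal transporter, at least 6.96-fold lower, Acot3, Acot4 and Cyp4a14, which are also on the PPARα list, Cd36, a fatty acid carrier, by 1.09 ± 0.093, and A1bg. A1bg was not above background at either site, and Cd36 lost its call under median scaling, with normexp and quantile scaling and when its probes were averaged. Abcd2 lost its call with normexp. Sult1e1, given above, was the member that rose. Socs2, a feedback inhibitor induced by growth hormone, rose by 1.54 ± 0.086, with 2.61, 2.51, 2.66 and 2.69 on the DR4 arrays and 0.97, 1.19 and 1.09 on the DR6 arrays. Igf1 was at 0.78 ± 0.053 and Ghr, the growth hormone receptor, at 0.050 ± 0.088. Cyp26a1, which breaks down retinoic acid, rose by 1.97 ± 0.16, with 0.24, −0.035, −0.040 and −0.041 on the DR4 arrays and −1.68, −2.04 and −2.09 on the DR6 arrays.

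Many of the largest falls were transcripts of other organs, among them exocrine pancreas: 25 of 26 markers fell, with a median of −3.12. Ela1, pancreatic elastase, stood at 0.65, 0.59, 0.58 and 0.53 on the DR4 arrays, against 5.37, 5.28 and 5.28 on the DR6 arrays, and fell by 4.72 ± 0.063 (adjusted p = 4.17e-18). Prss2, a trypsinogen and one of the brightest markers, stood at 5.07, 4.95, 4.88 and 5.00 on the DR4 arrays, against 8.31, 8.44 and 8.31 on the DR6 arrays, and fell by 3.38 ± 0.078. The phospholipase Pla2g1b fell by 4.32 ± 0.084, the carboxypeptidase Cpb1 by 3.87 ± 0.12, chymotrypsinogen Ctrb1 by 3.78 ± 0.12 and the lipase Cel by 3.67 ± 0.14. The DR4 pool was not free of them, since 24 of 26 were well above background on every DR4 array. The transcription factor Bhlhb8 (Mist1) was the member not called, at −0.34 ± 0.24 on its brighter probe, and its second probe was not well above background on any DR4 array. Cuzd1 and Aqp12, further pancreas genes, fell by 3.64 ± 0.078 and 3.63 ± 0.40, the call of Aqp12 being lost with normexp.

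The islet hormone genes fell with them. Ins2 stood at −2.57, −2.43, −2.66 and −2.54 on the DR4 arrays, against 1.18, 1.19 and 1.29 on the DR6 arrays, and fell by 3.77 ± 0.12, Ins1 by 3.32 ± 0.24 and glucagon, Gcg, by 3.16 ± 0.17. Ppy was at least 4.40-fold and Sst at least 4.14-fold lower. In all 9 of 16 islet and neuroendocrine genes fell and 1 rose. Npy, a neuropeptide of nerves, was the member that rose, by 1.69 ± 0.13, with 2.48, 2.43, 2.41 and 2.37 on the DR4 arrays and 0.79, 0.62 and 0.78 on the DR6 arrays. With normexp Ins2 and Npy kept their calls, and Ins1, Gcg, Ppy and Sst lost theirs.

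Gut and Reg genes were lower in DR4 as well. Of 19 gut epithelium genes 9 fell and none rose. Tff2, a mucus-associated trefoil peptide, stood at −2.19, −1.92, −2.33 and −2.10 on the DR4 arrays, against 1.67, 1.69 and 1.64 on the DR6 arrays, and fell by 3.80 ± 0.088 (adjusted p = 7.38e-15). The Paneth cell defensins Defa1 and Defcr6 were at least 15.4-fold and 11.4-fold lower, and the intestinal factor Cdx2 at least 4.99-fold. Of the gut genes that fell, Tff2 alone kept the call with normexp. All 6 Reg family lectins, secreted by pancreas and gut under stress, fell, with a median of −3.35. Of these, Reg3g and Reg3d lost the call with normexp. Reg1 stood at 2.98, 3.12, 3.15 and 3.17 on the DR4 arrays, against 6.20, 6.20 and 6.27 on the DR6 arrays, and fell by 3.12 ± 0.14, Reg3a fell by 3.77 ± 0.089 and Pap (Reg3b) by 3.58 ± 0.097.

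Markers of further tissues differed in both directions. Of 27 muscle genes 5 fell and 2 rose, with 24 differences below 0 and a median of −0.73. Actin Acta1 fell by 1.25 ± 0.081 and myosin Myh2 by 1.19 ± 0.065, while myosin Myh4 rose by 1.09 ± 0.096. Myh4 and Actn3, the members that rose, lost the call with normexp. The summed signal of the muscle genes was 0.0678% to 0.0703% of the gene signal on the DR4 arrays and 0.108% on each DR6 array. The near-identical renin genes, which probes may not tell apart, fell, Ren2 by 1.30 ± 0.21 and Ren1 by 1.08 ± 0.15, the second lost under median scaling, with normexp and quantile scaling and without DR6 replicate 3, and Umod, a kidney tubule protein, was at least 2.77-fold lower. The lung surfactant gene Sftpc was at least 4.37-fold lower, and Lor, a protein of cornified skin, rose by 2.41 ± 0.10, with 2.28, 2.08, 2.06 and 2.19 on the DR4 arrays and −0.36, −0.14 and −0.28 on the DR6 arrays. Umod and Sftpc lost the call with normexp, and Lor kept it. Among 39 stellate and matrix genes, 24 endothelial genes and 58 ribosomal protein genes none was called by limma. The unadjusted p was under 0.05 for 22, 17 and 21 of them. The adjusted p was under 0.05 for 18, 14 and 18, against 44.4% of all genes. Of 14 erythroid genes 1 fell, Bpgm, by 1.20 ± 0.11 on its brightest probe.

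**Figure D4:**
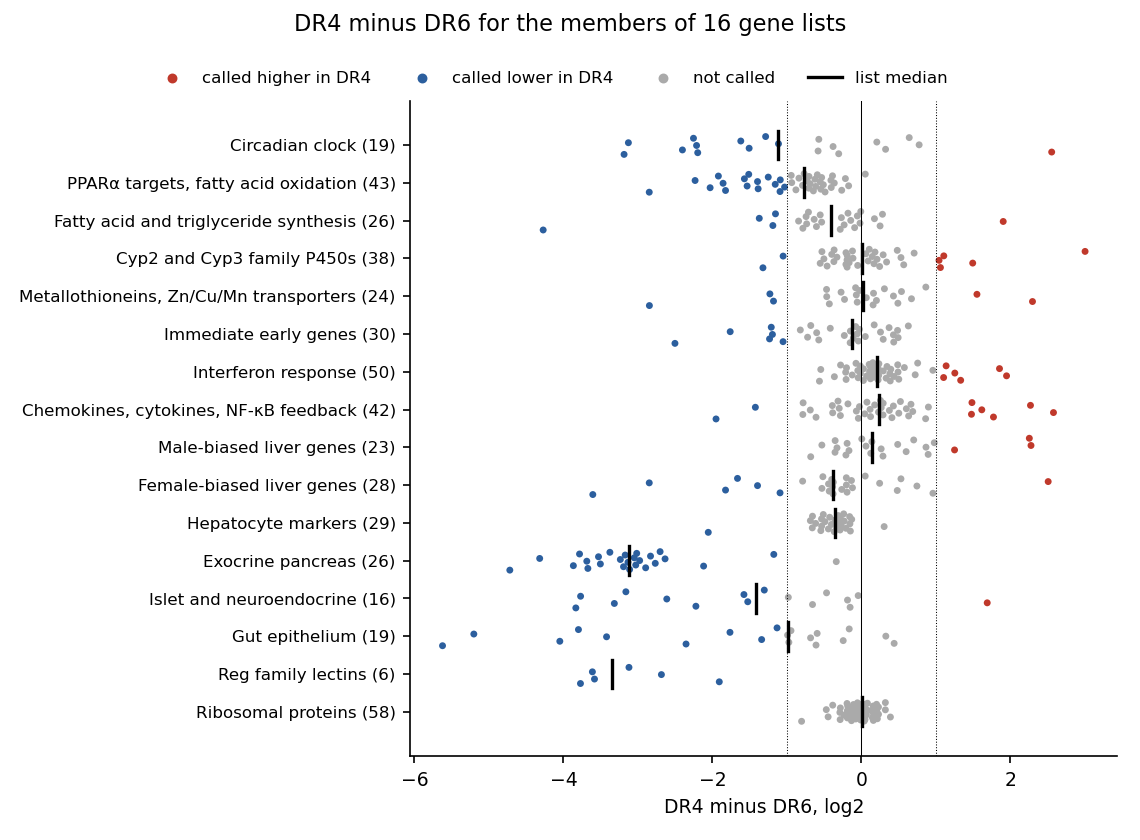
DR4 minus DR6 (x axis, log2) for every measured member of 16 gene lists (rows, with the number of members), red and blue for members called higher and lower in DR4, grey for the rest, and a black bar at the list median. The exocrine pancreas and Reg lists lie almost wholly below −1, the clock and PPARα lists are shifted down with medians of −1.11 and −0.77, and ribosomal proteins sit around 0.

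Of the remaining largest differences, Prap1, a secreted protein of gut and uterus, fell by 3.66 ± 0.11 and the goblet cell gene Clca3 by 3.59 ± 0.18. Trim12, of an antiviral gene family, was at least 11.9-fold lower, with both of its probes below background in DR4, and lost the call with normexp. Defb1, a β-defensin, rose by 2.45 ± 0.17, lost with normexp and quantile scaling, with −0.47, −0.34, −0.56 and −0.56 on the DR4 arrays and −2.82, −2.87 and −3.10 on the DR6 arrays. Areg, a ligand of the EGF receptor, was at least 4.25-fold higher and lost the call with normexp. The receptor, Egfr, was at 0.60 ± 0.048 on the brightest of 6 probes, which ran from 0.58 to 1.84. Olfr166, annotated as an olfactory receptor, rose by 2.51 ± 0.23 on one probe, and its other probe was at −0.12.

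The other 3 pools place these differences. Of the 390 genes higher in DR4 than in DR6, the DR1 mean lay nearer to DR4 for 252 (64.6%), the PS mean for 121 (31.0%) and the SOL mean for 99 (25.4%). Of the 617 lower genes, DR1 lay nearer to DR4 for 327 (53%), PS for 308 (49.9%) and SOL for 216 (35.0%). All 3 other pools lay nearer to DR4 for 46 of the higher and 120 of the lower genes, and nearer to DR6 for 105 and 139. These counts have no test.

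Single genes show the different patterns. For Scd1 and Csad the other pools lay nearer to DR4: Scd1 averaged 1.41 ± 0.084 in DR4 and 5.68 ± 0.13 in DR6 (SD, n = 4 and 3 arrays), with 2.91 ± 0.10 in DR1, 1.12 ± 0.043 in PS and 2.01 ± 0.041 in SOL (n = 4 each). For Acot2, Usp2 and Hlf the PS and SOL pools lay nearer to DR6: Usp2 averaged −1.34 ± 0.087 in DR4 and 0.88 ± 0.045 in DR6, with −0.0046 ± 0.12 in DR1, 0.87 ± 0.042 in PS and 0.85 ± 0.061 in SOL. Arntl averaged 1.14 ± 0.23 in DR1, between DR4 and DR6, and −0.20 ± 1.24 in SOL, nearer to DR6, as was PS.

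Among the rises, Gpx3 averaged 2.59 ± 0.064 in DR4 and −0.53 ± 0.13 in DR6, with −1.22 ± 0.38 in DR1, 0.57 ± 0.095 in PS and −2.32 ± 0.12 in SOL. Slc30a10 averaged 0.17 ± 0.15 in DR4 and −2.13 ± 0.015 in DR6, with 0.41 ± 0.070 in DR1, −0.49 ± 0.11 in PS and 0.10 ± 0.14 in SOL. Npy averaged 2.42 ± 0.046 in DR4 and 0.73 ± 0.093 in DR6, with −2.65 ± 0.19 in DR1, −2.42 ± 0.18 in PS and −2.93 ± 0.27 in SOL. Ela1 averaged 0.59 ± 0.052 in DR4 and 5.31 ± 0.053 in DR6, with 4.01 ± 0.068 in DR1, 2.24 ± 0.035 in PS and 4.50 ± 0.11 in SOL. DR4 thus had the lowest and DR6 the highest Ela1 level of the 5 pools.

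**Figure D5:**
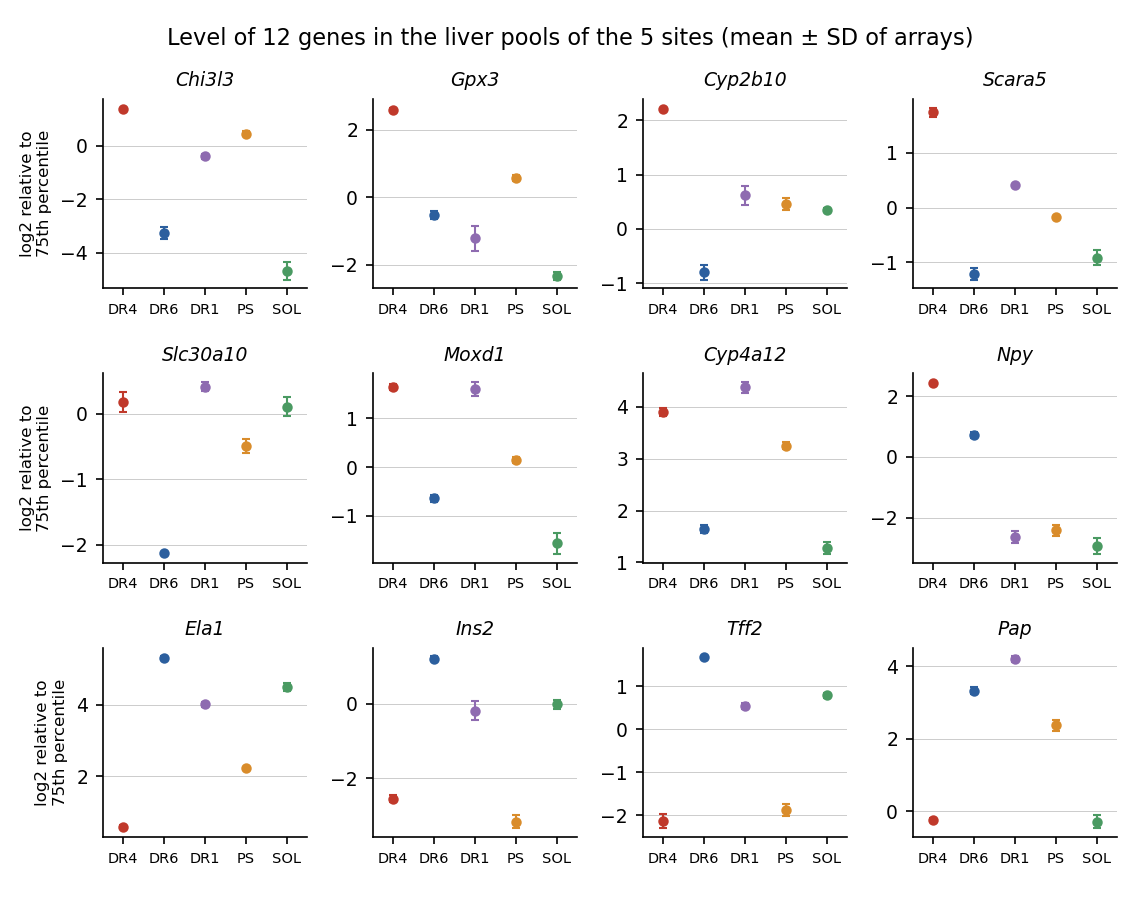
Level of 12 genes (y axes, log2 relative to the 75th percentile, scale set per gene) in the pools of DR4, DR6, DR1, PS and SOL; points are means and bars SD over 4 arrays (3 for DR6). Chi3l3, Gpx3, Cyp2b10, Scara5 and Npy are highest in the DR4 pool among these 5, Slc30a10 is low in DR6, and Ela1 is lowest in DR4 and highest in DR6.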

How the data were processed

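Liver RNA of 5 pools was measured on 19 one-colour arrays. Per the file headers, the authors scanned each array and deposited the processed signal, a background-corrected intensity per spot, made with Agilent's Feature Extraction, whose version the submitters' processing notes give as 9.5.3.1. Outlier-flagged spots were left out, repeated spots of a probe averaged and log2 signals set relative to the 75th percentile of the array. Of 41174 probes, 23457 passed the filter, 3 or more arrays of some site being well above background. The brightest probe stood for each of 16344 genes. limma 3.58.1 fitted the mean of each site over all 19 arrays, and values missing for 189 genes in DR4 or DR6 were dropped. A call took a 2-fold difference beside an adjusted p under 0.05. On simulated arrays of 16003 genes, 91% of genes changed by 1.5 log2 units were recovered.

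Genes named are the 15 largest differences and 8 largest bounds in each direction, up to 10 called and 4 bright uncalled members of each of 53 lists in each direction, and a fixed set of core genes. Some results for genes that the rule names are not reported here, and genes beyond it are in the closing section, except Cry1, Cry2 and Nr1d2, added after their values were seen. The members and lists were chosen with earlier results of these data known. Alternatives were other scalings, normexp background correction, filters, probe rules, the 7 arrays alone, the replicate number as a block and each array left out. Slide could not be fitted as a block, since each site has its own. Same-numbered arrays correlated at 0.19, −0.030 and 0.071 in their deviations, so the numbers do not pair arrays. The number of arrays limits the precision.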

Additional observations from a re-analysis of the deposited data

Results flagged for a closer look

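On the 4 DR4 arrays, 1 array lay far from the other 3 for 11 of 220 genes named here, judged by its gap to the nearest array divided by the whole range. That is 5%, and chance flags about 1 in 20. The 3 DR6 arrays were too few for the comparison. The ratio was 0.976 for Cyp26a1, 0.971 for Defcr6, 0.939 for Igf1, 0.930 for Cdx2, 0.927 for Clock, 0.922 for Trim12, 0.898 for Nr1d1, 0.865 for Aqp12, 0.859 for Olfr166, 0.854 for Elovl3 and 0.840 for Ren2, each above Dixon's limit for 4 values. Of these, Defcr6, Cdx2 and Trim12 were not well above background on any DR4 array. In all 11 genes the DR4 arrays still lay wholly on one side of the DR6 arrays, as in 54.7% of all genes.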

How the results depend on the processing

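The 1007 calls (390 higher, 617 lower) depended on the 2-fold limit and on the background correction. With normexp on the raw signals, 295 were called with the 75th percentile (52 higher, 243 lower) and 241 with quantile scaling (86 higher, 155 lower). Without the background filter 1012 genes were lower, of 27843 tested. The adjusted p alone gave 7259 genes, 3274 higher and 3985 lower. Leaving out any 1 of the 7 arrays gave 977 to 1030 calls, 370 to 397 higher and 599 to 657 lower. Median scaling gave 999, quantile scaling 1014, the stricter filter 921, the 7 arrays alone 1010, the mean of probes 1007, outlier spots kept 1008 and the authors' deposited values 1010. Of 191 called genes among those named, 102 lost the call and 6 more changed sign with normexp and the 75th percentile, where Ccnb1 was 0.089, Klrb1c 0.13, A1bg 0.11, Ereg 0.071, Guca2b 0.084 and Il10 0.055. The cause was not tested. Median scaling ended 11 of the 191 calls, quantile scaling 8, the mean of probes 5 and leaving out an array 3 to 8. The replicate block gave 1027 calls (396 higher, 631 lower), 977 of them shared, and ended 1 of the 191. The numbers name arrays and pair nothing. Dim genes carry the least certain folds, and 214 calls rest on a bound.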

Other observations

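Genes of cornified and squamous epithelium were chosen for this paragraph after their values were seen. Among them Krtdap, of differentiating keratinocytes, was at least 1.92-fold higher in DR4 and Krt4, a keratin of squamous mucosa, at least 1.71-fold. Asprv1, a protease of the skin's outer layer, was at least 6.18-fold higher, Calml3 at least 3.26-fold, Crct1 at least 2.97-fold, Serpinb12 at least 2.85-fold and Krt15 at least 2.08-fold. These 7 were not well above background on any DR6 array. Of them Krtdap, Krt4, Asprv1 and Calml3 lost the call with normexp. Whether Crct1, Serpinb12 and Krt15 kept theirs with normexp was not looked at. Atp12a, a proton pump, rose by 1.77 ± 0.26. Not all keratins followed: Krt5 at 0.78 ± 0.21 and Krt14 at −0.27 ± 0.40 stayed under the limit, while Krt1 fell by 1.00 ± 0.25. The call of Krt1 was lost under median scaling and with normexp.

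Glandular kallikreins, secreted proteases abundant in salivary gland, pancreas and kidney, were lower in DR4 and were also chosen after their values were seen. Klk1 stood at −0.0026, −0.078, −0.081 and 0.031 on the DR4 arrays, against 2.78, 2.73 and 2.69 on the DR6 arrays, and fell by 2.77 ± 0.071. Klk1b4 fell by 2.75 ± 0.098, Klk1b3 by 2.58 ± 0.078, Egfbp2 by 2.42 ± 0.078, Klk1b8 by 2.36 ± 0.14 and Klk1b24 by 1.67 ± 0.20, while Klk1b27 was at −0.27 ± 0.19. The members are near-identical, so their probes may measure each other's transcripts. Pancreas markers, given above, were lower in the same arrays, and their part here was not tested.

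The largest difference in each direction belonged to a transcript without a gene symbol. A130022J15Rik stood at 1.22, 1.22, 1.26 and 1.26 on the DR4 arrays, was not well above background on any DR6 array and was at least 41.0-fold higher. It averaged −5.30 in DR1, −5.74 in PS and −5.47 in SOL. 1810009J06Rik stood at −1.62, −1.60, −1.87 and −1.76 on the DR4 arrays, against 4.83, 4.78 and 4.71 on the DR6 arrays, and fell by 6.49 ± 0.077. It averaged −0.31 in DR1, −0.82 in PS and 1.78 in SOL.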
